A study of Mus musculus with 8 samples.

Results

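The genes described here are 8 mouse genes of glucocorticoid metabolism and response: Hsd11b1, Hsd11b2, H6pd, Nr3c1, Nr3c2, Fkbp5, Tsc22d3 and Sgk1. They were found by their mouse Entrez gene IDs, which the authors' table of processed array values carries in its row names, and all 8 were among the 24235 genes of that table. Expression was measured with one-colour Agilent arrays in primary follicular cells, grown from preantral follicles of female Swiss mice aged 8 weeks and labelled as mostly granulosa cells. The design had 4 groups of 2 arrays. Cells of the first group received a non-targeting control siRNA pool and vehicle, those of the second the control siRNA and 100 nM 17β-estradiol (E2), those of the third an siRNA pool against Foxl2 and vehicle, and those of the fourth the Foxl2 siRNA and E2. All wells received 12 pmol of siRNA and a DsRed plasmid. By the labels, the cells grew for 24 hr between transfection and lysis with vehicle or E2 added 10 hr before lysis, whereas the study's text places E2 after 24 hr of siRNA, so the length of the knockdown is not settled. The hormone-free medium held charcoal-treated serum with no androstenedione, so the control arrays share the transfection and the steroid-poor medium. Each replicate came from a pool of 5 mice, and the cells had been 9 days in culture.

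Glucocorticoids act on a cell only as far as its own enzymes and receptors let them. The enzyme encoded by Hsd11b1 regenerates active corticosterone from its inert 11-keto form, drawing on NADPH that hexose-6-phosphate dehydrogenase (H6pd) makes inside the endoplasmic reticulum, whereas the enzyme encoded by Hsd11b2 inactivates corticosterone. The hormone binds the glucocorticoid receptor (Nr3c1) and the mineralocorticoid receptor (Nr3c2), and HSD11B2 is best known for shielding the latter from glucocorticoids in kidney. Fkbp5 (a co-chaperone that lowers receptor affinity), Tsc22d3 (the anti-inflammatory protein GILZ) and Sgk1 (a kinase that promotes sodium transport and survival) are classical glucocorticoid-induced genes, though other signals control them as well. In ovarian follicles, HSD11B2 is the form associated with granulosa cells before ovulation and HSD11B1 the form that rises with luteinization.

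All values below are processed spot intensities, divided by each array's 75th percentile, multiplied by the geometric mean of the 8 percentiles (320 units), averaged over the probes of a gene and put on a log2 scale. Differences come from limma, fitted to the 15638 genes whose median signal reached 10, with Benjamini-Hochberg adjustment over those genes and a threshold of 0.05. Of the 8 genes, 7 passed this signal filter, and 5 (H6pd, Nr3c1, Fkbp5, Tsc22d3 and Sgk1) were well above background on all 8 arrays. Levels of different genes cannot be ranked against each other, because each probe has its own brightness. RNA came from whole wells, so fewer cells of one type and less RNA per cell cannot be told apart.

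The labels were checked first. Foxl2 itself was not lower at the level of the gene on the arrays labelled FOXL2 siRNA (mean knockdown change 0.18, SE 0.10, limma adjusted p = 0.334), because its bright probe (0.18, adjusted p = 0.364 over probes) outweighs its dim probe, which stood at 51.1% of the control siRNA level (log2 change -0.97, SE 0.19, adjusted p = 0.0199 over probes). The study reports from qPCR, not from these arrays, that each siRNA pool strongly lowered its target mRNA. Esr2, which the study places downstream of FOXL2, was lower here (mean knockdown change -0.46, SE 0.09, limma adjusted p = 0.0167). Array replicates correlated at 0.989 to 0.992, and 51.4 to 55.6% of probes exceeded background clearly per array. Of the 9 granulosa markers listed, 7 were well above background and Amh and Fshr were not on any array. Markers of other cell types were detected. The signal exceeded background clearly for 4 of 5 macrophage markers (not Ptprc; summed signal 1584 to 2099 over the 8 arrays), 2 of 4 endothelial markers (not Cdh5 or Tek; 1098 to 1951), 3 of 5 smooth muscle and stroma markers (not Myh11 or Pdgfra; 22150 to 39820) and 1 to 2 of 7 oocyte markers depending on the group (Zp1, Zp2, Zp3, Bmp15 and Oosp1 on no array; 103.8 to 233.3).

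**Figure D1:**
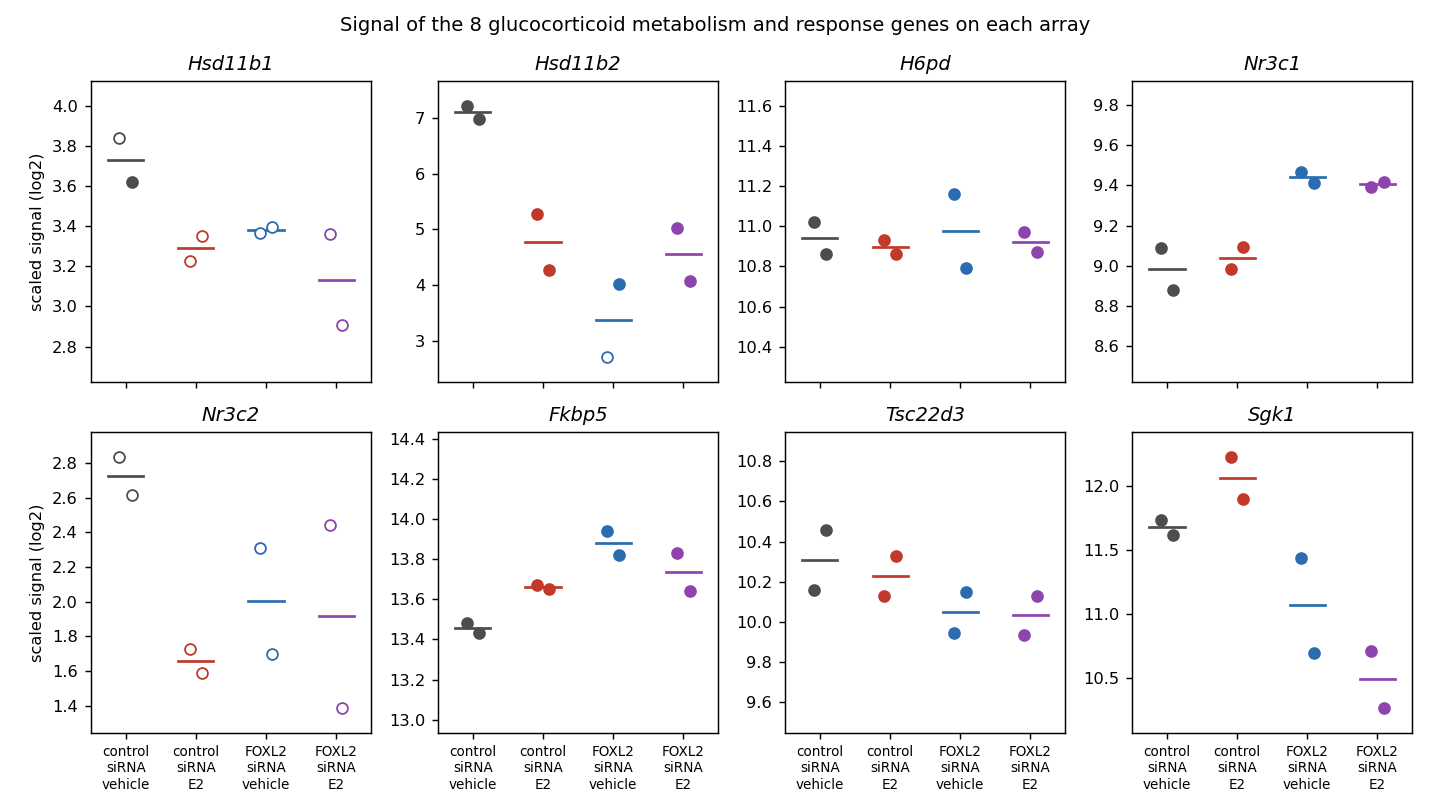
Scaled signal (log2, vertical axis, a separate range per gene) of the 8 genes on each of the 8 arrays, by group on the horizontal axis. Each point is an array, filled where the gene was well above background and open where it was not, and bars are group means of 2 arrays. Hsd11b2 was highest on both arrays of control siRNA with vehicle, Sgk1 was lower on all 4 FOXL2 siRNA arrays, Nr3c1 was higher on all 4, and all Nr3c2 points are open.

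Hsd11b2, on chromosome 8, showed the largest differences of the 8 genes. Its log2 signal was 7.21 and 6.99 in control siRNA with vehicle, 5.27 and 4.26 in control siRNA with E2, 2.71 and 4.02 in FOXL2 siRNA with vehicle, and 5.03 and 4.07 in FOXL2 siRNA with E2. Both arrays of the first group lay above the other 6, the E2 arrays of both siRNAs overlapped, and the FOXL2 siRNA arrays with vehicle were the lowest pair. The probe was not well above background on the first array of FOXL2 siRNA with vehicle and was so on the other 7. The study describes Hsd11b2 as a gene that E2 activates, which is opposite in direction to what the arrays labelled control siRNA show here. The treatment labels of those 4 arrays were used as given, and the cause of this difference was not tested. For every gene below, the knockdown changes with vehicle and with E2, the E2 changes with control siRNA and averaged over both siRNAs, and the difference between the E2 effects depend on those labels. On the same control siRNA arrays, E2 against vehicle gave a median of 0.34 for the Sertoli cell markers, Sox9 among them, beside -0.01 over all genes. The study reports that E2 repressed Sox9 and Sox8, by less than its size threshold for targets. That statement is on single genes, and its direction is opposite to this list median. Over all genes, limma called 0 higher and 3 lower for E2 with control siRNA, and 2 higher and 0 lower with FOXL2 siRNA. For the difference between the E2 effects, 37 were higher and 1 lower. The study, by its rule of size and with control siRNA, found nearly all E2 targets activated.

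With vehicle, Hsd11b2 fell after FOXL2 siRNA to 7.49% of its control siRNA level, 1 of the 2 FOXL2 siRNA arrays having a signal well above background (log2 change -3.74, SE 0.53, 95% CI -4.97 to -2.50, limma adjusted p = 0.00744). With E2 its knockdown change was -0.22 (SE 0.53, 95% CI -1.46 to 1.02, adjusted p = 0.893). Averaged over both treatments the gene fell by 1.98 on the log2 scale (SE 0.38, adjusted p = 0.0132), with the arrays of both siRNAs overlapping. The sizes depend on the background correction: with normexp, a model-based correction, in place of the processed signal the change of Hsd11b2 with vehicle was -1.44 (adjusted p = 0.00378) and the mean change -0.75 (adjusted p = 0.00700). The mean takes the same value if the treatment labels within a siRNA are exchanged, which the change with vehicle does not. The study, from a separate array experiment, lists Hsd11b2 among the genes activated by FOXL2. It also counts Hsd11b2 among the targets shared with the conditional Foxl2 knockout in vivo.

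For E2 the picture of Hsd11b2 was less certain. With control siRNA the signal under E2 was 19.8% of that under vehicle (log2 change -2.33, SE 0.53, 95% CI -3.57 to -1.10). The unadjusted p was 0.00257 and the adjusted p 0.535 over all genes, limma. The arrays did not overlap, as was so for 27.2% of all genes tested. With FOXL2 siRNA the E2 change was 1.18 (SE 0.53, 95% CI -0.05 to 2.42, adjusted p = 0.9999). Its size rests largely on the first vehicle array (2.71), where the probe was not well above background. The second vehicle array, at 4.02, was close to the lower E2 array at 4.07. Over the 18 alternatives this E2 change lay between 0.13 and 1.84. The difference below includes the same low array. The difference between those E2 effects was 3.52 (SE 0.75, 95% CI 1.77 to 5.27) with an unadjusted p of 0.00177 and an adjusted p of 0.254, so it did not pass. With normexp the E2 change of Hsd11b2 with control siRNA was -1.25 and the difference 1.38. With the replicate number as a block in limma, both passed (adjusted p = 0.0324 and 0.0139). The labels do not say that a replicate number marks a shared pool. The knockdown with vehicle and the E2 comparison with control siRNA share the 2 control siRNA arrays with vehicle, and both changes rest on the high signal of that pair.

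By the study's own rule for E2 targets, which has no p-value (group means at least 1 log2 unit apart, and by over 2 times their summed SDs), Hsd11b2 was the single one of the 7 tested genes to qualify for E2 with control siRNA. That rule picked 0.454% of all genes with control siRNA and 0.217% with FOXL2 siRNA, where 0 of the 7 genes qualified.

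The opposing enzyme and its NADPH source did not move past the threshold. Hsd11b1 was near the detection limit: its single probe, printed in 10 spots, was well above background on 1 array, the second of control siRNA with vehicle, where 6 of 10 spots passed. Its log2 signal was 3.84 and 3.62 in control siRNA with vehicle, 3.23 and 3.35 in control siRNA with E2, 3.37 and 3.40 in FOXL2 siRNA with vehicle, and 3.36 and 2.91 in FOXL2 siRNA with E2. The highest pair was that of the first group, but the mean knockdown change was -0.25 (SE 0.26, 95% CI -0.85 to 0.34, adjusted p = 0.595).

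H6pd, the enzyme that feeds NADPH to HSD11B1, was bright and flat. Its log2 signal was 11.02 and 10.86 in control siRNA with vehicle, 10.93 and 10.86 in control siRNA with E2, 11.16 and 10.79 in FOXL2 siRNA with vehicle, and 10.97 and 10.87 in FOXL2 siRNA with E2. Every pair of groups overlapped, and its mean knockdown change was 0.03 with a 95% CI of -0.18 to 0.25 (limma adjusted p = 0.872).

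The receptors differed in detection. Nr3c1, the glucocorticoid receptor, had log2 signals of 9.09 and 8.88 in control siRNA with vehicle, 8.98 and 9.09 in control siRNA with E2, 9.47 and 9.41 in FOXL2 siRNA with vehicle, and 9.39 and 9.42 in FOXL2 siRNA with E2. All 4 FOXL2 siRNA arrays lay above all 4 control siRNA arrays, and vehicle and E2 overlapped within each siRNA. The arrays of both siRNAs were separated, in either direction, for 20.9% of all genes tested. Averaged over both treatments Nr3c1 rose by 0.41 (SE 0.08, 95% CI 0.23 to 0.59, limma adjusted p = 0.0122). Its brighter probe rose by 0.38 (adjusted p = 0.0259 over probes), and the dimmer probe differed by 0.81 without passing (adjusted p = 0.0844).

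With vehicle alone the rise of Nr3c1 was 0.46 (SE 0.11, adjusted p = 0.0498), at the edge of the threshold, and it did not pass when any 1 of the 8 arrays was left out (adjusted p 0.0578 to 0.231). With E2 the change was 0.37 (SE 0.11, adjusted p = 0.125). Without the first array of control siRNA with E2 the mean change also missed the threshold, with an adjusted p of 0.0538.

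Nr3c2, the mineralocorticoid receptor, was well above background on 0 of 8 arrays and failed the signal filter, so no change was tested. Its log2 signal was 2.84 and 2.62 in control siRNA with vehicle, 1.73 and 1.59 in control siRNA with E2, 2.31 and 1.70 in FOXL2 siRNA with vehicle, and 2.44 and 1.39 in FOXL2 siRNA with E2. The lowest log2 signal among probes well above background was 3.48 to 3.89 depending on the array, so these values carry no order.

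Sgk1, on chromosome 10, had the largest mean knockdown change of the 3 glucocorticoid-induced genes among the 8. Its log2 signal was 11.74 and 11.62 in control siRNA with vehicle, 12.23 and 11.90 in control siRNA with E2, 11.44 and 10.70 in FOXL2 siRNA with vehicle, and 10.71 and 10.27 in FOXL2 siRNA with E2. All 4 FOXL2 siRNA arrays lay below all 4 control siRNA arrays. Such separation, in either direction, held for 20.9% of all genes tested. Averaged over both treatments Sgk1 fell by 1.09 on the log2 scale (SE 0.18, 95% CI -1.50 to -0.68, limma adjusted p = 0.00664), and this call held under all 18 other settings that were run.

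The order of the Sgk1 group means, from control siRNA with E2 (12.07, SD 0.23) over control siRNA with vehicle (11.68, SD 0.08) and FOXL2 siRNA with vehicle (11.07, SD 0.52) to FOXL2 siRNA with E2 (10.49, SD 0.32), had neighbours whose differences did not pass the test. With E2 the knockdown left 33.5% of the control siRNA level (log2 change -1.58, SE 0.25, adjusted p = 0.0149). With vehicle the change was -0.61 (SE 0.25, adjusted p = 0.232). The E2 changes of Sgk1 were 0.39 with control siRNA and -0.58 with FOXL2 siRNA, and the difference between them, -0.97 (SE 0.35), did not pass (adjusted p = 0.870). With the replicate number as a block in limma, this difference (0.0111) and the knockdown change with vehicle (0.00399) passed. The labels do not say that a replicate number marks a shared pool. The call with E2 was lost without either array of control siRNA with E2 (adjusted p = 0.111 and 0.0611) and without the second of FOXL2 siRNA with E2 (0.0959).

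Since Sgk1 changed most among the 3 glucocorticoid-induced genes, a stretch before one of its 6 annotated transcription starts is shown, the one that holds the most matches of the motifs named below. It lies at chr10:21993640-21993889 on the plus strand of GRCm38.p6, in RefSeq promoter windows that reach from 250 bases before a start to 50 after it, and capitals mark those matches.
Sgk1: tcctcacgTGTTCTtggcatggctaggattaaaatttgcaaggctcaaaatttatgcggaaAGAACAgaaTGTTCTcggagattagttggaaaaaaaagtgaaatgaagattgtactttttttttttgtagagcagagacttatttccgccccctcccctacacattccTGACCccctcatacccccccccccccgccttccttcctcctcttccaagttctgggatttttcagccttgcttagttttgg
The motifs searched on both strands were the hexamer AGAACA of glucocorticoid response elements, the pentamer GGTCA of estrogen response elements, and 4 forkhead words, namely GTAAACA, its variant ATAAACA, the related word GTAAATA, and its own variant ATAAATA. A match of 1 motif may overlap one of another. This stretch holds 3 matches of the glucocorticoid hexamer and 1 of the estrogen pentamer. The last 2 hexamers face each other with 3 bases between them, an arrangement noticed after the sequence was read and found in 3 of all 32851 mouse windows (0.00913%). No forkhead word stands in these letters.

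The windows of 6 of the 8 genes were in the table, 13 windows in all. The glucocorticoid hexamer was in 5 of the 13 windows (19.0% of all mouse windows), the estrogen pentamer in 9 (40.5%), and a forkhead word in 1, that of Hsd11b1 (15.0%). Of these 13 windows 6 belong to Sgk1, and they supply 3 of the 5 and 5 of the 9. Counted per gene, the glucocorticoid hexamer was in a window of 3 of 6 genes (21.3% of all genes), the estrogen pentamer of 4 (43.6%) and a forkhead word of 1 (16.9%). The stretch before the start of Fkbp5, at chr17:28486150-28486399 on the minus strand, is shown as the contrast among the genes that changed: it held 0 matches.
Fkbp5: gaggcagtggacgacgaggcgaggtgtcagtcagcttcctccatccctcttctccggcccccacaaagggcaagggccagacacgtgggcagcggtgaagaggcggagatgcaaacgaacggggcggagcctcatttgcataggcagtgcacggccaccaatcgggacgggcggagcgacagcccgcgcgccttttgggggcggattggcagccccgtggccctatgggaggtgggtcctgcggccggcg
These matches describe letters in a window and say nothing of binding. Windows of Hsd11b2 and Nr3c1 were not used here.

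Fkbp5, the co-chaperone of the receptor, was bright on all 8 arrays and moved by small amounts. Its log2 signal was 13.48 and 13.43 in control siRNA with vehicle, 13.67 and 13.65 in control siRNA with E2, 13.94 and 13.82 in FOXL2 siRNA with vehicle, and 13.83 and 13.64 in FOXL2 siRNA with E2. The control siRNA arrays with vehicle were the lowest pair, and the E2 arrays of both siRNAs overlapped. With vehicle Fkbp5 rose by 0.43 after FOXL2 siRNA (SE 0.09, 95% CI 0.22 to 0.64, limma adjusted p = 0.0336). With E2 the change was 0.07 (SE 0.09, adjusted p = 0.786). The mean rise of 0.25 (SE 0.06, adjusted p = 0.0438) did not pass when any 1 array was left out, and the rise with vehicle passed only in the 2 of 8 such fits that left out an array of FOXL2 siRNA with E2 (0.0644 to 0.169 in the others). The difference between the E2 effects of Fkbp5 was -0.36 (SE 0.13, adjusted p = 0.852).

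Tsc22d3, which encodes GILZ, had log2 signals of 10.16 and 10.46 in control siRNA with vehicle, 10.13 and 10.33 in control siRNA with E2, 9.94 and 10.15 in FOXL2 siRNA with vehicle, and 9.93 and 10.13 in FOXL2 siRNA with E2. Its mean knockdown change was -0.23 (SE 0.10, 95% CI -0.46 to 0.00, adjusted p = 0.195). By the calls in the mean knockdown effect, the 3 glucocorticoid-induced genes did not share a direction: Fkbp5 was higher and Sgk1 lower. Tsc22d3, at -0.23, did not pass. The call of Fkbp5 lay near the threshold (limma adjusted p = 0.0438) and was lost under 12 of the 18 alternatives. The lack of a shared direction rests on that unsteady call.

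**Figure D2:**
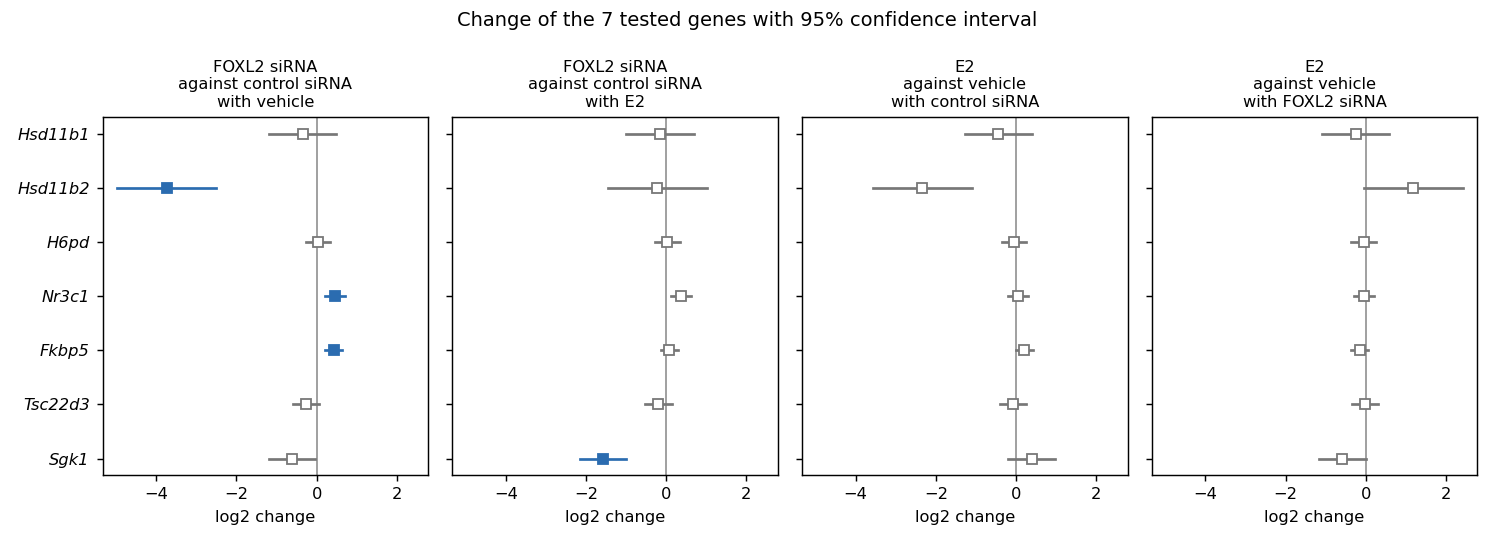
Log2 change (horizontal axis) with its 95% confidence interval for the 7 tested genes in 4 comparisons, 2 arrays per group. Filled blue squares mark changes with an adjusted p under 0.05 and open squares the rest. Hsd11b2 fell by 3.74 in the knockdown with vehicle, Sgk1 stood at -1.58 in the knockdown with E2, and no square is filled for E2 against vehicle.

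Counted together, 3 of the 7 tested genes passed in the knockdown with vehicle (Hsd11b2 lower, Nr3c1 and Fkbp5 higher), where 6.57% of all genes passed. With E2, 1 of 7 passed (Sgk1, lower) against 4.39% of all genes. In the mean over both treatments 4 of 7 passed, Nr3c1 and Fkbp5 higher and Hsd11b2 and Sgk1 lower, against 12.6% of all genes.

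For E2, 0 of the 7 genes passed in limma without a replicate block. Few of all genes did in that fit: 0.0192% with control siRNA, 0.0128% with FOXL2 siRNA and 0% in the mean over both siRNAs. With the replicate number as a block, 182 and 96 of all genes passed with control and FOXL2 siRNA. Hsd11b2 passed there with control siRNA, and Hsd11b2 and Sgk1 for the difference between the E2 effects. The counts that follow are from the fit without the block. At an unadjusted p under 0.05, Hsd11b2 was counted with control siRNA, Sgk1 with FOXL2 siRNA, and 0 of 7 in the mean, beside 716, 476 and 360 of all 15638 genes. For the difference between the E2 effects 0 of 7 passed, against 0.243% of all genes, and 3 (Hsd11b2, Fkbp5 and Sgk1) had an unadjusted p under 0.05, beside 767 of all genes. Intervals of the mean E2 change were narrowest for Fkbp5 (-0.12 to 0.18) and Nr3c1 (-0.17 to 0.19) and widest for Hsd11b2 (-1.45 to 0.30).

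Related genes were read in 5 lists, in the mean knockdown effect, where 12.6% of all genes passed, unless said otherwise. Of the 16 chaperones and coregulators of both receptors, such as Hsp90ab1, Fkbp4 and Ncoa1, 0 passed in either direction in limma, in any of the 7 comparisons. Their median change was -0.07, beside -0.0026 over all genes tested.

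Of 31 tested glucocorticoid-induced genes other than the 8, 7 rose and 5 fell, against 12.6% of all genes passing, with a median change of 0.07. Cebpd (log2 change 1.45, SE 0.10, limma adjusted p = 0.000301), a transcription factor of the acute response, and Crispld2 (1.11, SE 0.10, adjusted p = 0.000575), a secreted protein, rose most. Arrdc3 (-0.58, SE 0.10, adjusted p = 0.00877), an arrestin-domain protein, and Cebpb (-0.56, SE 0.09, adjusted p = 0.00679), a transcription factor of luteinizing follicles, fell most. The others that rose were Glul, Dusp1, Anxa1, Map3k6 and Mt1, by 0.29 to 0.90, and those that fell were Bcl6, Angptl4 and Arrdc2, by 0.37 to 0.53 on the log2 scale; the last 8 were named after their values were seen. Within the list, members moved both ways.

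With vehicle, 4 of these 31 genes were higher (Cebpd, Crispld2, Dusp1 and Anxa1) and 4 lower (Bcl6, Angptl4, Arrdc2 and Cebpb), against 6.57% of all genes passing. With E2, Cebpd, Crispld2 and Map3k6 were higher and Arrdc3 was lower, 4 of 31 against 4.39%. E2 changed 0 of them in any E2 comparison by limma. The difference between the E2 effects passed for Map3k6 alone (1.03, adjusted p = 0.0390), a stress kinase.

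Around the mineralocorticoid receptor and SGK1, 2 of 12 tested genes rose and 2 fell, against 12.6% of all genes passing. Atp1b1, a sodium pump subunit, rose most (0.96, SE 0.17, limma adjusted p = 0.00897). The epithelial sodium channel subunit Scnn1a (-0.53, SE 0.14, adjusted p = 0.0443) and Ndrg2, a substrate of SGK kinases (-0.38, SE 0.10, adjusted p = 0.0403), fell. With vehicle Atp1b1 was higher and Ndrg2 lower. The fall of Ndrg2 rests on the vehicle arrays: with vehicle the change was -0.99 (adjusted p = 0.00696), while under E2 it was 0.23 and did not pass (0.479). Over both treatments the Ndrg2 arrays of the 2 siRNAs overlapped.

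Among 13 genes of NADPH supply, which includes the pentose phosphate enzymes in the cytosol, 2 rose and 0 fell, against 12.6% of all genes passing. They were G6pdx (0.55, SE 0.09, limma adjusted p = 0.00831), the cytosolic counterpart of H6pd, and Slc37a2 (0.37, SE 0.10, adjusted p = 0.0472), a sugar phosphate transporter of the endoplasmic reticulum. G6pdx also passed with E2, and 0 of the 13 passed with vehicle. The list median was 0.18, the largest of the 5 lists.

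**Figure D3:**
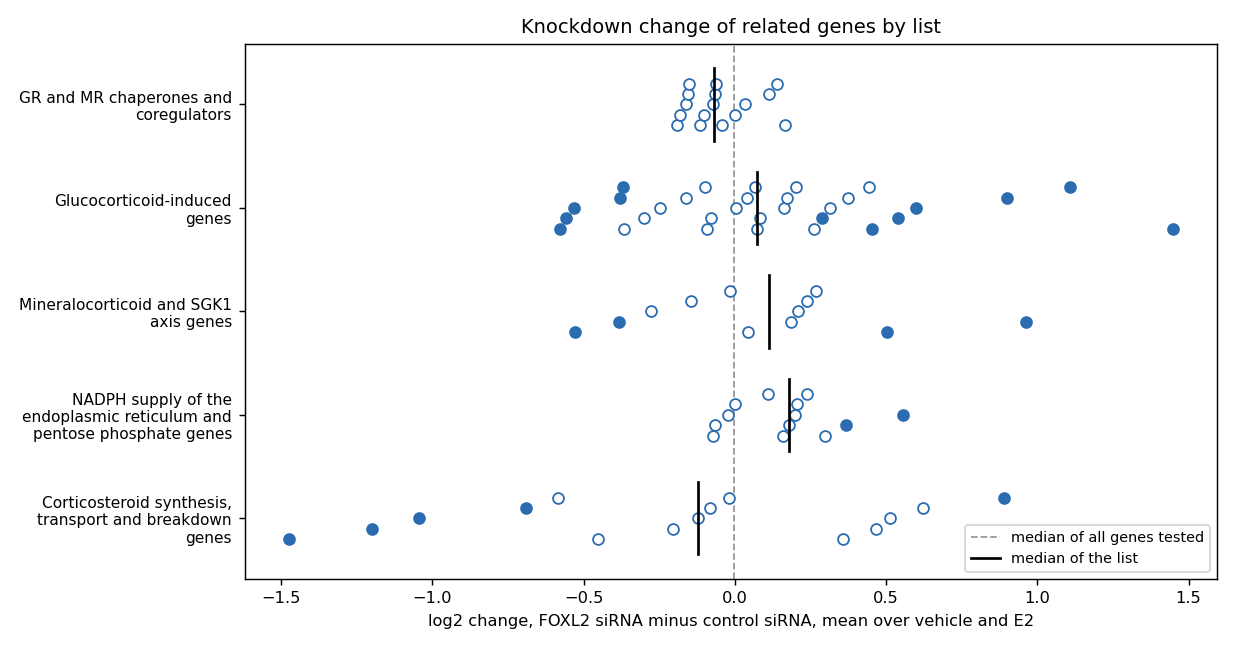
Log2 change of each tested gene of 5 lists in FOXL2 siRNA against control siRNA, averaged over vehicle and E2 (horizontal axis), with lists on the vertical axis and points staggered to separate them. Filled points have an adjusted p under 0.05, black bars are list medians, and the dashed line is the median of all genes tested. Receptor chaperones hold no filled point, and glucocorticoid-induced genes have filled points on both sides.

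Of 15 tested genes of corticosteroid synthesis, transport and breakdown, 1 rose and 4 fell, against 12.6% of all genes passing. Cyp11a1, which makes pregnenolone from cholesterol, rose (0.89, SE 0.06, limma adjusted p = 0.000195). Hsd17b1, the estradiol-forming enzyme of granulosa cells (-1.48, SE 0.18, adjusted p = 0.00222), and Akr1c14, a 3α-hydroxysteroid dehydrogenase (-1.20, SE 0.13, adjusted p = 0.00118), fell most. Hsd3b1 and Hsd3b6, which form progesterone from pregnenolone and whose near-identical sequences can share probe signal, fell by 0.69 and 1.04 on the log2 scale and were named after their values were seen. With vehicle the same 5 genes passed in the same directions, against 6.57% of all genes, and with E2 Cyp11a1 was higher and Hsd17b1 lower, against 4.39%.

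Some markers of other cell types moved in the mean knockdown effect as well. Tested luteal, oocyte, macrophage, endothelial, and smooth muscle and stroma markers held 0 calls. Of the 6 Sertoli cell markers, Sox9, Sox8, Dhh and Gata1 rose, Dmrt1 did not pass and Amh was not well above background. The summed signal of the Sertoli list was 2369 to 3266 on the control siRNA arrays and 4523 to 6429 on the FOXL2 siRNA arrays. Of the 4 theca markers on the array, Lhcgr was not well above background and Cyp11a1, which granulosa cells can also express, rose. Cyp17a1 (0.62, adjusted p = 0.110) and Star (0.47, adjusted p = 0.105) did not pass. The summed signal of the theca list, most of it from Cyp11a1, was 20830 to 23820 on control siRNA arrays and 38770 to 41260 on FOXL2 siRNA arrays. Interferon-response genes summed to 157100 to 223800 on control siRNA arrays and 207000 to 257400 on FOXL2 siRNA arrays, with overlap and with 0 of 7 genes past the threshold in the mean knockdown effect. Granulosa markers summed to 72730 to 82660 and 74960 to 82410, with Fst and Esr2 lower. The part of these shifts in the changes of Hsd11b2, Sgk1, Nr3c1 and Fkbp5 was not tested.

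Genes whose signal over the 8 arrays was most like that of each changed gene were named by Pearson's r, as a description across arrays that share their groups. Candidates were genes well above background in at least 2 groups, with signals spread over 1 log2 unit or more. For Hsd11b2 they were Xrcc2 (r = 0.982), a DNA repair protein, Ston2 (0.943), an endocytosis protein, and Omd (0.940), an extracellular matrix protein. For Sgk1 they were Slc5a7 (0.983), the choline transporter, and Sema4f (0.975), a semaphorin. For Nr3c1 they were Myo5b (0.989), Trim2 (0.987) and Cyp39a1 (0.987), the last a hydroxylase of oxysterols. For Fkbp5 they were Klhl30 (0.973), Ppp1r1a (0.966) and Tnnt1 (0.963). The lowest log2 signals of Slc5a7 (2.51), Ston2 (2.87) and Myo5b (2.95) lay under the lowest of probes well above background (3.48 to 3.89). Part of their range, and so of their r, is near the detection limit.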

How the data were processed

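Spot intensity was deposited for 8 one-colour arrays as Agilent Feature Extraction wrote it. A single scan of 1 slide covered them all, so slide and scan could not be tested as batches. The replicate number as a block was an alternative. The processed intensity used here is corrected for background and spatial trends by the authors' software. A second deposited table gives log2 values per gene by the authors. They differed from log2 of the probe-averaged processed intensity by 1 constant per array, within 0.001 for 98.7 to 98.9% of genes.

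Groups came from the sample titles. Of the probes, 55642 were used, without controls and without 39 flagged for non-uniform spots. Processed intensities were divided by each array's 75th percentile (275.1 to 367.5 units), multiplied by the geometric mean of the percentiles (320 units), averaged over probes sharing an Entrez gene ID, kept at a median of at least 10 as in the study's methods, and put on a log2 scale. Array intensities carry no read depth, and 2 arrays per group limit the precision.

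Limma version 3.58.1 in R version 4.3.3 fitted 4 group means over all 8 arrays with an intensity trend and two-sided tests, leaving 4 residual degrees of freedom. The 7 comparisons were the knockdown with each treatment, E2 with each siRNA, the mean of each pair and the difference between the E2 effects. The fit was tested on simulated data. The files had no mean spot signal, so the normexp alternative used the median one. Alternatives changed the background correction, scaling, filters, spread model, arrays fitted, probe choice, source of values and pairing, and left out each array in turn.

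Promoter windows came from RefSeq on GRCm38.p6. Gene coordinates are left out, since the array design used mm9. The 8 genes, the 5 lists (up to 2 rises and 2 falls named per list, by size in the mean knockdown effect) and the marker lists were chosen with earlier results of these data known. For each changed gene the 3 most similar genes were sought. Some genes under these rules are not reported here. Plots were drawn with matplotlib 3.10.9.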

Additional observations from a re-analysis of the deposited data

How the results depend on the processing

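The fall of Hsd11b2 in the knockdown with vehicle and the fall of Sgk1 in the mean knockdown effect kept their direction and passed the threshold under all 18 alternatives, and 0 called changes of the 8 genes turned in sign under any of them. The size of the Hsd11b2 changes shrank with normexp, from -3.74 to -1.44 with vehicle, from -1.98 to -0.75 in the mean knockdown effect, from -2.33 to -1.25 for E2 with control siRNA and from 3.52 to 1.38 for the difference between the E2 effects. Over all alternatives the change with vehicle lay between -4.39 and -1.44. None of them exchanged the treatment labels of the control siRNA arrays, on which this change depends. The number of the 8 genes called in the knockdown with vehicle went from 3 to 1 with no filter on low values, with no intensity trend, and with only the groups compared in the fit. In the knockdown with E2 it went from 1 to 0 with no intensity trend, where Sgk1 had an adjusted p of 0.0517. Leaving out 1 array each gave 1 to 2 calls with vehicle, 0 to 1 with E2, and 1 to 3 in the mean knockdown effect. Without the first array of control siRNA with E2, Sgk1 alone stayed in the mean effect, Hsd11b2 having an adjusted p of 0.0514. The rise of Nr3c1 with vehicle was lost with normexp (adjusted p = 0.167), quantile normalization (0.0501), no filter (0.0694), no intensity trend (0.0810), only the groups compared (0.145) and the brightest probe (0.0605). The mean rise of Fkbp5 was lost with the first 4 of these, with adjusted p from 0.0683 to 0.0971. Under normexp the mean knockdown change of Hsd11b1, which was not called, was 0.04 in place of -0.25. The cause was not tested.

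The labels number the replicates but do not say that a number marks a shared pool of mice. Deviations of same-numbered arrays from their group means correlated at 0.327 to 0.445 over all 6 pairs of groups. With the replicate number as a block, 1 gene was called for E2 with control siRNA (Hsd11b2, adjusted p = 0.0324), 2 in the knockdown with E2, where Nr3c1 joined Sgk1 (0.0295), and 2 for the difference between the E2 effects (Hsd11b2, 0.0139, and Sgk1, 0.0111). Sgk1 with vehicle (0.00399) and Tsc22d3 in the mean knockdown effect (0.0128) also passed there. Over all genes the block moved the calls from 3 to 182 and from 2 to 96 for E2 with control and FOXL2 siRNA, from 0 to 8 for their mean, from 1027 to 2932, 686 to 2331 and 1971 to 4326 for the knockdown with vehicle, with E2 and in the mean, and from 38 to 332 for the difference. Fewer genes were called with no intensity trend in the knockdown with vehicle (633) and with E2 (379) and for the difference (15), and with only the groups compared with vehicle (585). The difference fell to 9 with no filter. Leaving out 1 array took the lowest counts to 309 with vehicle, 131 with E2, 1181 in the mean and 4 for the difference. For E2, counts without the block lay between 0 and 7.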
